A study of Mus musculus with 12 samples.

Results

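Cyp2b9, Cyp2b10 and Cyp2b13 are cytochrome P450 genes of mouse liver, and Nr1i3 and Nr1i2 encode CAR and PXR, the nuclear receptors best known for switching Cyp2b and Cyp3a genes on. These 5 genes, of 22870 with at least 1 transcript in the deposited liver table, were chosen by name, with their levels on a high-fat and a normal diet already known, so the difference between those diets is given for them as a description without a test. All livers came from male C57BL/6J mice that received their diets for 16 weeks from 5 weeks of age and were 21 weeks old at collection. The 4 groups were a normal diet (ND), a high-fat diet (HFD), the HFD with 1.5% of an ethanol extract of chrysanthemum leaf (CLE) and the HFD with 0.003% luteolin (LU), a flavone, so that the CLE and LU mice ate the high-fat diet too. Whole-liver mRNA was sequenced from 3 mice per group, which the study's methods call representative of their group. How these mice were picked was not given in the sources used here, and no female liver was analysed here.

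CAR and PXR pair with the retinoid X receptor on DNA and sense foreign chemicals and body-made steroids and bile acids. CAR waits in the cytoplasm in a complex with chaperones, whereas PXR is opened directly by its ligands. Their targets carry out the steps of detoxification, from oxidation by cytochromes P450 through conjugation by transferases to export. Cyp2b10 is the usual readout of CAR in mouse liver, and Cyp2b9 and Cyp2b13 are known as genes with higher expression in female than in male liver, a difference set by the pulse pattern of growth hormone.

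The 3 Cyp2b genes lie on the plus strand of chromosome 7 within 313 kb. In GENCODE M21 on GRCm38, Cyp2b10 (ENSMUSG00000030483) spans chr7:25897620-25926624, Cyp2b13 (ENSMUSG00000040583) spans chr7:26061497-26096197 and Cyp2b9 (ENSMUSG00000040660) spans chr7:26173411-26210661. The gap between Cyp2b10 and Cyp2b13 is 135 kb, and that between Cyp2b13 and Cyp2b9 is 77.2 kb. Nr1i3 (ENSMUSG00000005677) is at chr1:171213970-171220701 on the plus strand, and Nr1i2 (ENSMUSG00000022809) is at chr16:38248323-38294824 on the minus strand. All 5 are protein coding.

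The sequences just before the starts of the 3 Cyp2b genes are shown because they set out which of these genes share their upstream DNA. They come from RefSeq on GRCm38.p6, plus strand, and read 5′ to 3′ toward the start. Cyp2b9 is chr7:26173159-26173408 and Cyp2b13 is chr7:26061245-26061494, each 250 bases, and capitals in these 2 mark the bases that differ between them. Cyp2b10 is chr7:25897408-25897619, printed for 212 bases as far as the GENCODE start of its transcript, with capitals at bases that differ from Cyp2b9 in the alignment.
Cyp2b9: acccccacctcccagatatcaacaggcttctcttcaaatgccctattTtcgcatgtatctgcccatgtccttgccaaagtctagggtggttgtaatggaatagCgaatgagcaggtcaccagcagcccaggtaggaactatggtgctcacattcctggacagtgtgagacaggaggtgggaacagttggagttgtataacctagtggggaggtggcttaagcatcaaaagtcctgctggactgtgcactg
Cyp2b13: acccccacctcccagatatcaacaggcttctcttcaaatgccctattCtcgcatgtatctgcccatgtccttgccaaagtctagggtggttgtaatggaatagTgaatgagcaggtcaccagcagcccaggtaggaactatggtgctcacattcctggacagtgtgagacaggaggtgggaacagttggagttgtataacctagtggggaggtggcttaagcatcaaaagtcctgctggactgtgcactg
Cyp2b10: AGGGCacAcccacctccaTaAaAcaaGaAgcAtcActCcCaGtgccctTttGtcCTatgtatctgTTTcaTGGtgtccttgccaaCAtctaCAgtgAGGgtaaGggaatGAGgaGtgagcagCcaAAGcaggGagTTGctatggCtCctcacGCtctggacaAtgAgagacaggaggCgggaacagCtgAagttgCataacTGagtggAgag

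Cyp2b9 and Cyp2b13 were identical at 248 of these 250 positions (99.2%). With positions counted back from -1 at the base before the start and the Cyp2b9 base first, their differences are T-203C and C-147T. The 250 bases before Cyp2b10 matched those of Cyp2b9 at 179 of 260 alignment columns (68.8%). The nuclear receptor core motif AGGTCA, searched on both strands, starts at position -138 in both Cyp2b9 and Cyp2b13, and has no match in this window of Cyp2b10, Nr1i2 or Nr1i3. It also starts at -121 in Cyp2b19 and at -164 in Cyp2b23, the remaining genes of the family, and occurs in 13.8% of 27025 promoter windows of the same length. A direct repeat of such cores, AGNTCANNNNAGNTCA, had no match in the 5 windows and one in 0.111% of all windows, and a match to it would overlap the search for the core motif. TTCNNNGAA, the STAT motif, and TATAAA also had no match in the 5 windows, against 7.18% and 13% of all windows. These letter matches describe the windows alone.

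The transcripts are less alike than the Cyp2b9 and Cyp2b13 promoters. Over their local alignment, the Cyp2b9 and Cyp2b13 transcripts were identical at 91.7% of columns, Cyp2b9 and Cyp2b10 at 87.7%, and Cyp2b13 and Cyp2b10 at 88.2%. Of the 1777 windows of 100 bases in the Cyp2b9 transcript, 21 (1.18%) occur without a mismatch in Cyp2b13 and 0 in Cyp2b10. Reads from those shared windows cannot be placed on one gene, so the split of values between Cyp2b9 and Cyp2b13 carries that uncertainty.

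Cyp2b13 has no entry under its own name in the deposited table. Its 3 transcript rows are filed under the name Cyp2b9, in a merged locus, and were found by their reference transcript. Levels are in FPKM, the fragment count of a transcript scaled to its length and to the size of the library, summed over the transcript rows of each GENCODE gene. In addition, 2 assembled rows reach across both genes, one summed with each gene. Together they hold at most 1.6 FPKM, in CLE 4, and values without them are given beside the Cyp2b13 results.

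**Figure D1:**
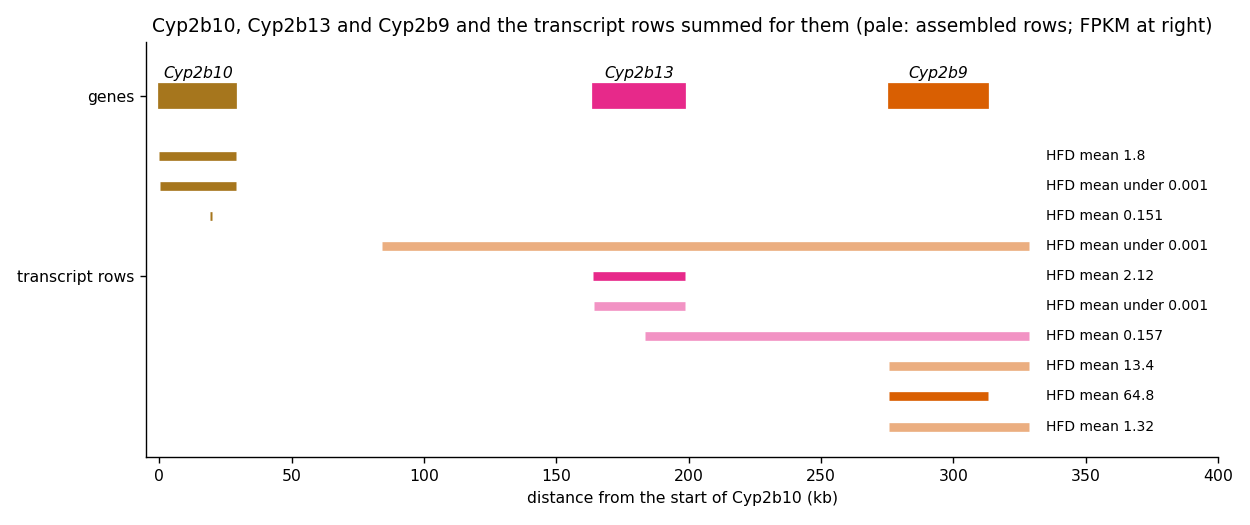
The Cyp2b10, Cyp2b13 and Cyp2b9 genes (boxes) and the 10 transcript rows summed for them (bars, coloured by the gene each is summed with; pale bars are transcripts assembled from the reads), placed by distance in kb from the start of Cyp2b10, with the mean FPKM of the 3 HFD livers at the right. The known Cyp2b9 transcript holds most of the signal at 64.8 FPKM, against 2.12 for the known Cyp2b13 transcript, and 2 pale bars reach across Cyp2b13 and Cyp2b9.

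Of 10 hepatocyte markers, 9 were in the table, and their summed level was between 30700 and 58100 FPKM in every liver. The Y-linked genes Ddx3y, Uty, Eif2s3y and Kdm5d were present in all 12 livers. Albumin, the main secreted protein of hepatocytes, was listed at 0 in 11 of 12 livers, so a 0 in this table can be a failed estimate and is not read here as absence. It is among the 9 hepatocyte markers, and its 19900 FPKM in LU 3 raises the summed level of that liver above what the others could show. The read depth per library was not given in the sources used here. Of the groups, HFD, CLE and LU had higher summed markers of Kupffer cells than ND in most livers (106 to 119 FPKM in ND, 156 to 232 in HFD, 153 to 196 in CLE and 117 to 200 in LU, all 8 markers in the table). The summed adipocyte markers were 0.995 to 1.67 FPKM in ND, 59.0 to 104 in HFD, 21.9 to 150 in CLE and 72.3 to 266 in LU, nearly all of it Cfd. Adipoq, the defining marker, was 0.5 to 0.759 FPKM in the LU livers and at most 0.145 in the others. Plin1 was 0.137 to 0.327 FPKM in LU and at most 0.0274 elsewhere. Lep was 0.139 to 0.187 FPKM in LU and listed at 0 elsewhere, whereas Retn was highest in CLE 2 (0.254 FPKM). The summed stellate cell markers were 73.6 to 105 FPKM in ND, 133 to 167 in HFD, 130 to 209 in CLE and 131 to 175 in LU (all 7 in the table). Of the 7, 5 were called higher in HFD than ND by limma, where 9.73% of all genes were. The 5 became 3 after median-of-ratios scaling, 3 under quantile normalization and 4 after GC correction. The summed erythroid markers were 132 to 182 in ND, 216 to 282 in HFD, 177 to 320 in CLE and 185 to 359 in LU (all 5 in the table). The part of these cell types in the results was not tested, and in whole liver fewer cells of a type and less RNA per cell cannot be told apart.

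Cyp2b9 was the main Cyp2b transcript of the high-fat diet livers and was near 0 on the normal diet. Its levels were 0.0592, 0.314 and 1.08 FPKM in ND 2, ND 3 and ND 4. In the HFD livers 12, 15 and 18 they were 68.7, 111 and 59.3 FPKM. The CLE livers 2, 4 and 11 held 1.48, 6.91 and 1.7 FPKM, and the LU livers 2, 3 and 8 held 1.57, 1.06 and 11.4 FPKM. Each HFD liver was above each of the other 9 livers, with a gap from 11.4 to 59.3 FPKM, while the CLE and LU livers overlapped one another. The means were 0.485 ± 0.532 in ND, 79.6 ± 27.4 in HFD, 3.37 ± 3.07 in CLE and 4.67 ± 5.81 FPKM in LU (SD, n = 3 each).

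**Figure D2:**
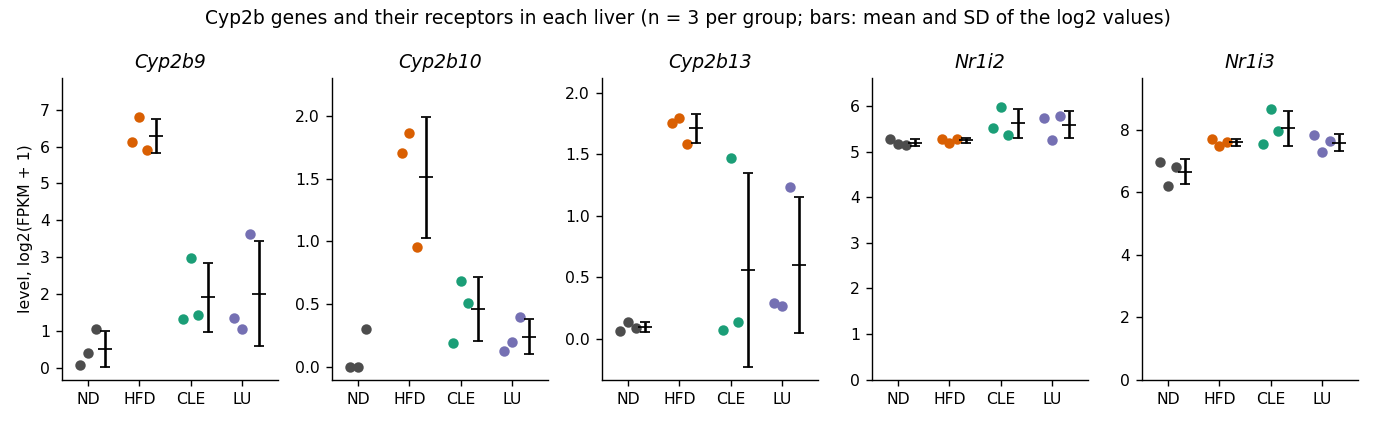
Level of each gene as log2(FPKM + 1), with a separate vertical scale per panel, in the 3 livers of each diet group (points), with the mean and SD of the log2 values beside them except where a liver is listed at 0 (Cyp2b10 in ND). Each HFD liver is above all other livers for the 3 Cyp2b genes, whereas the HFD and ND livers of Nr1i2 overlap and Nr1i3 is lowest in ND.

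The HFD mean of Cyp2b9 was 164 times the ND mean, and the log2 difference of HFD minus ND was 5.77 (SE 0.60), given without a test because this contrast took part in choosing the genes. Of 11994 genes tested, 1167 (9.73%) were higher in HFD than in ND at an adjusted p under 0.05, and nothing is read from the chosen genes against that share. Likewise, Cyp2b9, Cyp2b10 and Cyp2b13 are 3 of 607 genes (5.06%) with each HFD liver above each of the other 9 livers, and Nr1i2 and Nr1i3 are not among them.

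With CLE or luteolin added to the high-fat diet, Cyp2b9 was lower than on the high-fat diet alone in every liver. CLE minus HFD was -4.37 on the log2(FPKM + 1) scale (95% interval -5.66 to -3.08, limma adjusted p = 0.0043 over all genes), with the HFD mean 23.6 times the CLE mean. LU minus HFD was -4.27 (95% interval -5.56 to -2.97, limma adjusted p = 0.0081), with the HFD mean 17.0 times the LU mean. Both comparisons share the HFD livers, which also entered the choice of the genes, so these p-values are not independent of that choice or of each other. The background was 3.15% of genes lower and 2.52% higher in CLE than HFD, and 0.709% lower and 0.283% higher in LU than HFD.

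In the means, Cyp2b9 stayed above the normal diet level with either supplement, by a difference that missed the threshold. It was higher in CLE than in ND by 1.40 log2 units (95% interval 0.11 to 2.69, limma adjusted p = 0.093) and in LU than in ND by 1.50 (95% interval 0.21 to 2.79, limma adjusted p = 0.099). The ND livers also entered the choice of the genes, so p-values of the chosen genes against ND are not independent of that choice. The 3 CLE livers were each above the 3 ND livers, and the LU livers overlapped them by 1 value, 1.06 FPKM in LU 3 against 1.08 in ND 4. With a pseudocount of 0.1 in place of 1, both passed, at 2.67 (limma adjusted p = 0.036) for CLE and 2.72 (limma adjusted p = 0.048) for LU. Without CLE 4 the CLE difference was 0.86, and without LU 8 the LU difference was 0.69, both still short of the threshold (limma adjusted p = 0.33 and 0.31).

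Cyp2b10, the standard readout of CAR, was scarce in these livers. It was listed at 0 in ND 2 and ND 3 and at 0.235 FPKM in ND 4. The HFD livers 12, 15 and 18 had 2.26, 2.64 and 0.944 FPKM. The CLE livers 2, 4 and 11 had 0.142, 0.612 and 0.426 FPKM, and the LU livers 2, 3 and 8 had 0.0955, 0.147 and 0.318 FPKM. The HFD livers did not overlap the others, and HFD 18 was closest to them. The HFD mean was 1.95 ± 0.89 FPKM (SD, n = 3), which is a small part of the Cyp2b9 level in the same livers.

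Cyp2b10 reached the filter of 0.5 FPKM only through the HFD livers, the other 9 averaging 0.219 FPKM, so its differences from HFD are given without a test. CLE minus HFD was -1.05 (95% interval -1.50 to -0.59) and LU minus HFD was -1.27 (95% interval -1.72 to -0.81), on the log2(FPKM + 1) scale. With a single liver left out the CLE difference ranged from -1.32 to -0.87 and the LU difference from -1.54 to -1.09. Neither CLE minus ND (0.36, 95% interval -0.09 to 0.82, limma adjusted p = 0.2) nor LU minus ND (0.14, 95% interval -0.31 to 0.60, limma adjusted p = 0.66) passed.

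Cyp2b13 followed the same order at a low level, with 1 liver of each supplemented group apart. The ND livers had 0.0453, 0.1 and 0.0641 FPKM, and the HFD livers had 2.38, 2.47 and 1.99 FPKM. CLE 2 and CLE 11 had 0.0539 and 0.0983 FPKM against 1.77 in CLE 4. LU 2 and LU 3 had 0.223 and 0.207 FPKM against 1.36 in LU 8. CLE 4 and LU 8 were also the livers with the highest Cyp2b9 of their groups, and in both livers most of the Cyp2b13 sum came from the assembled row that reaches across into Cyp2b9. Without the rows that span both genes, Cyp2b13 was 0.173 FPKM in CLE 4 and 0.338 in LU 8, and 1.94 to 2.46 in the HFD livers.

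The filter was reached for Cyp2b13, too, only through the HFD livers, with 0.436 FPKM as the mean of the other 9. CLE minus HFD was -1.15 (95% interval -1.86 to -0.44) and LU minus HFD was -1.11 (95% interval -1.82 to -0.40), again without a test. Without the spanning rows, an alternative added after seeing the data, they were -1.51 and -1.46. Without the liver that stood apart they were -1.60 (without CLE 4) and -1.43 (without LU 8). The 2 remaining family members were not tested, since Cyp2b19 reached at most 0.0764 FPKM and Cyp2b23 was listed at 0 in all 12 livers.

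Added together, the 3 Cyp2b genes came to 83.8 ± 28.3 FPKM in HFD, 4.4 ± 4.25 in CLE and 5.46 ± 6.58 in LU (SD, n = 3 each). Cyp2b9 made up 93.7% to 95.6% of that sum in the HFD livers, 74.4% to 88.3% in CLE and 75.0% to 87.1% in LU. In the HFD livers Cyp2b10 and Cyp2b13 overlapped in level, and neither reached that of Cyp2b9.

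**Figure D3:**
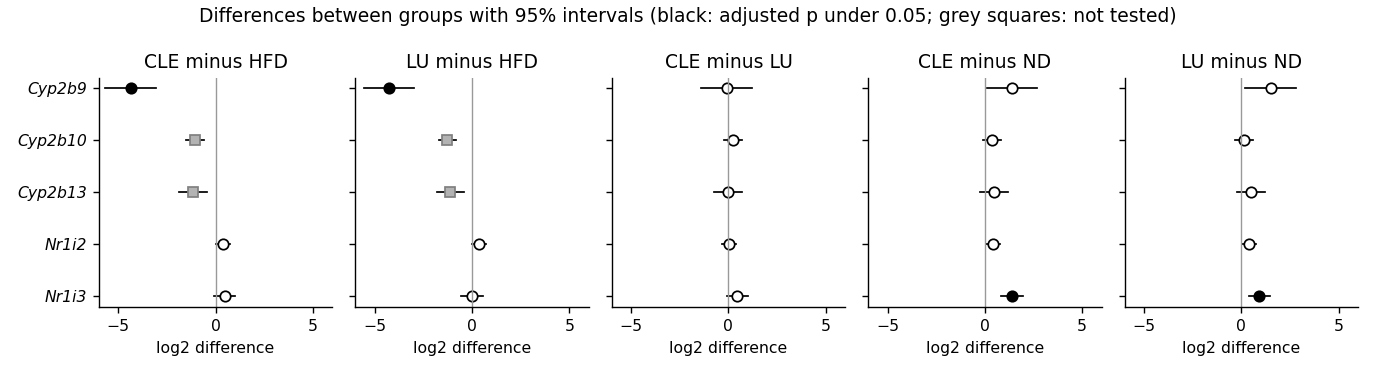
Log2 differences of log2(FPKM + 1) between groups for the 5 genes (points) with 95% intervals (lines) from one limma fit over 12 livers, black where the adjusted p is under 0.05 and grey squares where no test is given. Cyp2b9 is black on the lower side in both comparisons with HFD, no gene is black between CLE and LU, and Nr1i3 alone is black against ND.

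The extract and luteolin, given at different doses, were compared directly as well, and none of the 5 genes passed by limma, with 0 of the 5 at an unadjusted p under 0.05. CLE minus LU was -0.10 for Cyp2b9 (95% interval -1.40 to 1.19, limma adjusted p = 1) and 0.22 for Cyp2b10 (95% interval -0.23 to 0.68, limma adjusted p = 0.98). It was -0.04 for Cyp2b13 (95% interval -0.75 to 0.67) and 0.03 for Nr1i2 (95% interval -0.33 to 0.38), and 0.46 for Nr1i3 (95% interval -0.10 to 1.02). The intervals for Cyp2b9 leave room for a difference of more than 1 log2 unit either way. Of all genes, 1 (0.00834%) was called by limma between these groups, Gm10275, higher in CLE by 1.57 (limma adjusted p = 0.00015) and named here after its value was seen, and 511 had an unadjusted p under 0.05.

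The receptor genes were abundant in every group. Unlike the Cyp2b genes, neither had its highest mean in HFD, although Nr1i3 was higher in HFD than in ND. Nr1i2, which encodes PXR, was 37.9, 34.7 and 34.5 FPKM in the ND livers and 38, 35.2 and 37.5 in the HFD livers, so that these groups overlapped. Its HFD minus ND difference was 0.05 (SE 0.16), a description, and changed sign with the scaling (-0.11 after scaling by the median of ratios). The CLE livers had 44.6, 61.7 and 40.3 FPKM, each above all HFD livers, and the LU livers had 52.2, 37.2 and 54.2 FPKM. CLE minus HFD was 0.37 (95% interval 0.02 to 0.73, limma adjusted p = 0.15) and LU minus HFD was 0.35 (95% interval -0.00 to 0.70, limma adjusted p = 0.25). Against ND the differences were 0.42 for CLE (limma adjusted p = 0.071) and 0.39 for LU (limma adjusted p = 0.11). Without CLE 11, CLE minus ND was 0.54 and passed (limma adjusted p = 0.044), whereas without CLE 4 it was 0.24 (limma adjusted p = 0.26). It was also smaller after median-of-ratios scaling (0.25, limma adjusted p = 0.28) and after GC correction (0.20, limma adjusted p = 0.39).

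Nr1i3, which encodes CAR, had 124, 72.1 and 111 FPKM in the ND livers 2, 3 and 4. It had 208, 175 and 193 FPKM in the HFD livers, 185, 401 and 245 in CLE 2, CLE 4 and CLE 11, and 226, 156 and 197 in the LU livers. All livers on a high-fat diet, supplemented or not, were above all 3 ND livers, and the 3 high-fat groups overlapped. The HFD minus ND difference was 0.93 (SE 0.26), a description only. CLE minus ND was 1.39 (95% interval 0.83 to 1.95, limma adjusted p = 0.0046), among 20.6% of all genes called higher, and LU minus ND was 0.93 (95% interval 0.37 to 1.49, limma adjusted p = 0.033), among 10.8% called higher. Compared with HFD, CLE differed by 0.46 (95% interval -0.10 to 1.01, limma adjusted p = 0.25) and LU by -0.01 (95% interval -0.57 to 0.55, limma adjusted p = 0.99).

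These values sit on a shift of the whole table against ND. The median log2 difference over all genes was 0.16 for CLE minus ND, 0.12 for LU minus ND and 0.11 for HFD minus ND as deposited, and 0.02, 0.02 and -0.01 after scaling by the median of ratios. After that scaling Nr1i3 was 1.22 higher in CLE than ND (limma adjusted p = 0.01) and 0.80 higher in LU than ND (limma adjusted p = 0.067), so the LU call was lost. It was lost as well without ND 3 (0.70, limma adjusted p = 0.1), ND 4 (1.01, limma adjusted p = 0.069), LU 2 (0.81, limma adjusted p = 0.099) or LU 8 (0.91, limma adjusted p = 0.075).

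The Nr1i3 sum held rows of several kinds, and their shares depend on how the assembled rows are counted. Of its 13 transcript rows, the 4 known protein-coding ones averaged 16.8 ± 8.88 FPKM in ND, 10.7 ± 6.51 in HFD, 3.43 ± 1.01 in CLE and 5.18 ± 5.67 in LU (SD, n = 3 each). A further 3 rows were assembled from the reads with the structure of a known protein-coding transcript, and averaged 22.4 ± 11, 53.4 ± 11.8, 76.6 ± 29.4 and 62.5 ± 12.8 FPKM in the same groups. In the means the known rows were highest in ND and the assembled rows of the same structure lowest there.

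Counted together, these 7 rows held 41.3, 36.9 and 39.4 FPKM in the ND livers and 70.1, 59.9 and 62.1 in the HFD livers. They held 51.8, 112 and 76.8 FPKM in the CLE livers and 77.9, 62.3 and 62.9 in the LU livers, so every liver on a high-fat diet was above the ND livers, as for the whole sum. They made up 27.9% (CLE 4) to 51.2% (ND 3) of it. The 3 known retained-intron rows averaged 41.9 ± 18.5 in ND, 82.5 ± 6.81 in HFD, 133 ± 56.5 in CLE and 83.1 ± 20.6 FPKM in LU. These row groups were not tested separately.

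Nr1i3 also overlaps Tomm40l, a gene for a mitochondrial import channel on the other strand, over 3304 of its 4414 exonic bases (74.9%). The library kit keeps no strand, so reads in the overlap cannot be told apart. Tomm40l followed Nr1i3 through the livers, with 42.0 ± 17.7 FPKM in ND, 74.4 ± 9.41 in HFD, 95.3 ± 29.3 in CLE and 70.7 ± 17.8 in LU (SD, n = 3 each). It was the gene most like Nr1i3 over the 12 livers (Pearson r = 0.96, given as a description, since the points share diet groups and, here, reads).

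**Figure D4:**
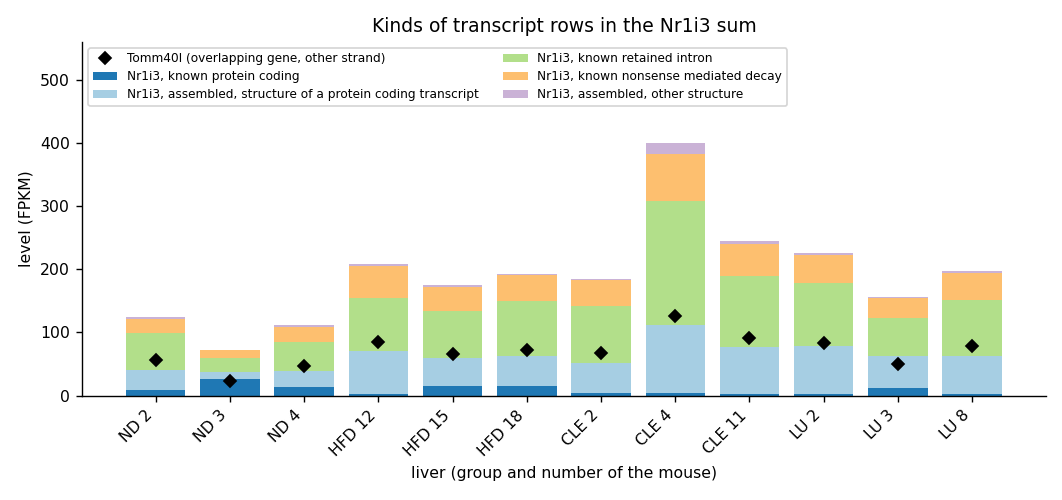
FPKM of the transcript rows summed for Nr1i3 in each liver, stacked by kind (bars), with the overlapping gene Tomm40l (diamonds). The known protein-coding part runs from 1.75 to 26.6 FPKM and the assembled part of the same structure from 10.3 (ND 3) to 107 FPKM (CLE 4), the retained-intron part is largest in CLE 4 at 197 FPKM, and Tomm40l is also highest in CLE 4 at 126 FPKM.

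The genes whose pattern over the 12 livers was most like that of Cyp2b9 were Hao2, which encodes a peroxisomal hydroxy acid oxidase (Pearson r = 0.97), Cyp2a4, a steroid hydroxylase (r = 0.97), and Slc22a27, of the organic anion transporter family (r = 0.95). Tceal8 (r = 0.95) and Gypc, a red cell membrane glycoprotein (r = 0.93), came next. Those nearest Cyp2b10 were Hao2 (r = 0.96), Rrm2b, a ribonucleotide reductase subunit (r = 0.95), Gm4540 (r = 0.94), Slc22a29 (r = 0.93) and Cyp2a4 (r = 0.92). Those nearest Cyp2b13 were Cyp2a4 (r = 0.90), then Tceal8, Hao2 and Vldlr, a lipoprotein receptor (each r = 0.88), and Ctse, the protease cathepsin E (r = 0.87). Among the 5 genes themselves, r was 0.93 for Cyp2b9 with Cyp2b10, 0.94 with Cyp2b13, 0.38 with Nr1i3 and -0.03 with Nr1i2. These correlations are descriptions over 12 livers that share 4 diet groups, so any gene high in HFD alone scores high.

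**Figure D5:**
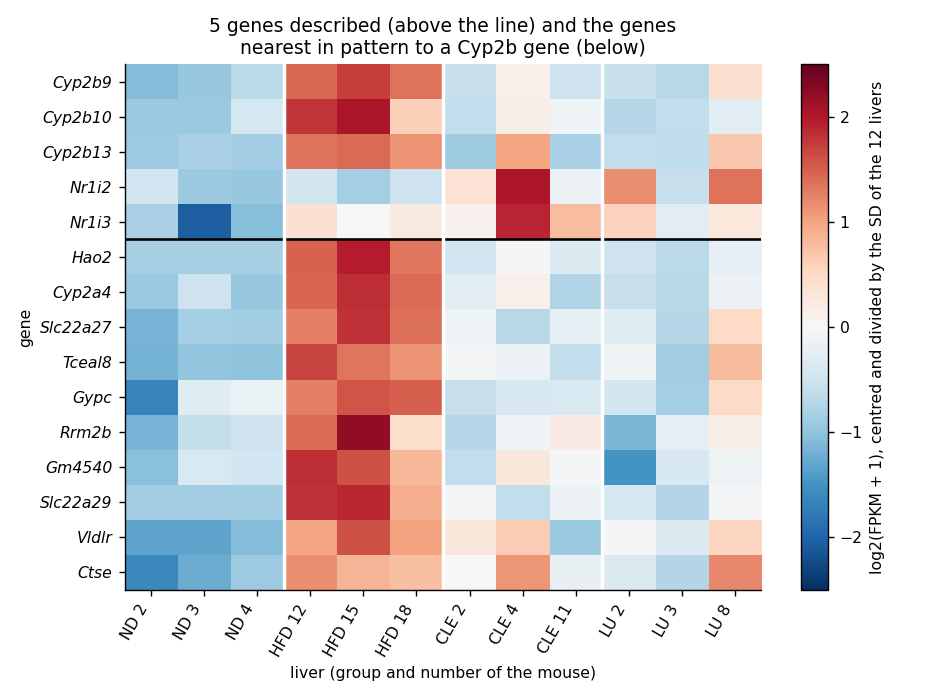
Level of the 5 genes described (above the line) and of the genes nearest in pattern to a Cyp2b gene (below), as log2(FPKM + 1) centred and divided by the SD of the 12 livers (colour), with 1 column per liver. The HFD columns are red for the Cyp2b genes and for the genes below the line, while Nr1i2 and Nr1i3 are reddest in CLE 4.

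Hao2 was listed at 0 in the 3 ND livers, and was 1.77, 2.44 and 1.58 FPKM in HFD, 0.168, 0.417 and 0.242 in CLE and 0.15, 0.0766 and 0.303 in LU, a split much like that of Cyp2b10. Cyp2a4 averaged 0.17 FPKM in ND, 4.61 in HFD, 0.661 in CLE and 0.449 in LU. Both were picked for this pattern and reached the filter only through the HFD livers, so no test is given for them.

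Other target genes of CAR and PXR moved with the Cyp2b genes in part. This list, like those below, was drawn up with earlier results of these data known, so its counts are not independent of them. Of 36 tested targets beside the Cyp2b genes, 1 (Cyp2a4) reached the filter only through the HFD livers and was left out of the counts against HFD. Of the other 35, 21 were higher and 0 lower in HFD than ND (median log2 difference 0.75, against 0.11 over all genes), where 9.73% of all genes were higher and 2.03% lower. In CLE against HFD, 0 were higher and 12 lower (median -0.56, against 0.02), and in LU against HFD 0 were higher and 8 lower (median -0.51, against -0.02), beside the 3.15% and 0.709% of all genes that were lower. Sult1e1, the estrogen sulfotransferase, went from 0.225 ± 0.161 FPKM in ND to 11.3 ± 4.33 in HFD, 0.301 ± 0.0311 in CLE and 1.15 ± 0.872 in LU (SD, n = 3 each), lower by limma in CLE (-3.17, adjusted p = 0.00067) and in LU (-2.52, adjusted p = 0.0018). Cyp2c29 fell by 1.84 in CLE (limma adjusted p = 0.00091) and by 1.52 in LU (limma adjusted p = 0.005), from a mean of 936 FPKM in HFD to 262 and 332. Gstm3, a glutathione transferase, fell by 2.62 in CLE (limma adjusted p = 0.022) and by 2.89 in LU (limma adjusted p = 0.019).

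Against ND, 11 of the 36 targets were higher and 2 lower in CLE, where 20.6% of all genes were higher and 6.12% lower, and 11 were higher and 1 lower in LU, where 10.8% were higher and 3.69% lower. Cyp3a11, the usual readout of PXR, averaged 615 FPKM in ND, 2280 in HFD, 1540 in CLE and 1520 in LU, and was 1.35 higher in CLE than ND (limma adjusted p = 0.0009). Cyp2a5, the coumarin hydroxylase, was 2.78 higher in CLE than ND (limma adjusted p = 0.00075) and 2.60 higher in LU than ND (limma adjusted p = 0.0012). Gsta1 was 3.45 higher in CLE (limma adjusted p = 6.5e-05) and 3.32 higher in LU (limma adjusted p = 6.9e-05). After median-of-ratios scaling the counts against ND were 9 higher and 3 lower in CLE, and 8 and 1 in LU, and in HFD 17 were higher and 1 lower of all 36.

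Of 28 tested partners and regulators of CAR and PXR, none passed by limma in CLE or LU against HFD, where 8 and 11 had an unadjusted p under 0.05, and in HFD against ND 1 was higher and 1 lower (9.73% and 2.03% of all genes). The latter were Nr0b2, the corepressor SHP, from 10.6 ± 4.51 to 35.2 ± 11.1 FPKM (1.68, limma adjusted p = 0.025), and Egfr, the epidermal growth factor receptor, whose signal holds CAR in the cytoplasm, from 159 ± 29.8 to 26.9 ± 11.2 FPKM (-2.58, limma adjusted p = 0.00042; SD, n = 3 each). Nr0b2 no longer passed under the 3 other scalings, which each left 0 of the 28 higher. Egfr stayed lower than ND in CLE (-1.48, limma adjusted p = 0.0098) and in LU (-1.61, limma adjusted p = 0.011), with means of 60 and 52 FPKM. In all, 2 of the 28 were higher and 4 lower in CLE than ND, where 20.6% of all genes were higher and 6.12% lower. In LU than ND, 0 were higher and 3 lower, where 10.8% of all genes were higher and 3.69% lower. After median-of-ratios scaling 0 were higher and 7 lower in each. Rxra, the shared partner RXR alpha, was among those lower in CLE (-0.51, limma adjusted p = 0.043), with means of 123 FPKM in ND and 86.8 in CLE.

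Since Cyp2b9 and Cyp2b13 are female-biased genes, the other sex-biased genes of mouse liver were counted. Of 30 genes known to be higher in females, 16 were tested, 2 of which reached the filter only through the HFD livers and were left out. Of the other 14, 4 were higher and 3 lower in HFD than ND, 0 were higher and 6 lower in CLE than HFD, and 0 and 3 in LU than HFD (medians -0.46 and -0.40), where 3.15% and 0.709% of all genes were lower. As drawn up, before the filter, this list shares Cyp2a4, Cyp3a16, Cyp3a41a, Cyp3a41b, Cyp3a44, Sult1e1 and Sult2a1 with the target list. The counts of these lists are therefore not independent. Cyp17a1, which makes androgen precursors, went against the Cyp2b genes, from 39 FPKM in ND to 4.61 in HFD (-2.84, limma adjusted p = 5.1e-06). Of 30 tested genes known to be higher in males, 1 was higher and 16 lower in HFD than ND (median -0.95), where 9.73% of all genes were higher and 2.03% lower. Against HFD, 9 were higher and 1 lower in CLE, and 5 and 0 in LU, where 2.52% and 0.283% of all genes were higher. The 9 became 13 under quantile normalization, 7 after median-of-ratios scaling and 6 after GC correction. Hsd3b5, a male-biased steroid dehydrogenase, had 45, 97.9 and 39.1 FPKM in ND, 0.6, 0.169 and 1 in HFD, 15.8, 8.63 and 44 in CLE, and 49.4, 55.1 and 3.03 in LU, with the HFD livers below all others. Its lowest LU liver, LU 8, was the one with the highest Cyp2b9, and its lowest CLE liver, CLE 4, likewise.

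Of 11 tested genes of growth hormone signalling, 1 was higher and 1 lower in HFD than ND, 3 were higher and 1 lower in CLE than ND, and 1 was higher and 0 lower in LU than ND. The shares of all genes in these comparisons were 9.73% higher and 2.03% lower, 20.6% and 6.12%, and 10.8% and 3.69%. After median-of-ratios scaling the CLE counts were 1 higher and 3 lower. Socs2, a feedback inhibitor induced by growth hormone, went from 39.7 ± 23.2 FPKM in ND to 3.13 ± 1.34 in HFD, 6.5 ± 3.59 in CLE and 16.2 ± 14.8 in LU (HFD minus ND -3.16, limma adjusted p = 0.0037; SD, n = 3 each). Stat5a was 0.78 higher in HFD (limma adjusted p = 0.02), a call lost under the 3 other scalings. The growth hormone receptor gene Ghr fell by 0.75 in CLE against HFD (limma adjusted p = 0.022), and Socs3 was 1.33 higher in LU than HFD (limma adjusted p = 0.032). Neither was called in the other supplemented group, a difference that was not tested beyond CLE minus LU, where 0 of the 11 passed by limma and 1 had an unadjusted p under 0.05.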

How the data were processed

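Liver mRNA of 12 male C57BL/6J mice (3 each of ND, HFD, CLE and LU) was sequenced as paired-end reads from unstranded TruSeq libraries. Per the submitters' processing notes, the authors used CASAVA 1.8.2, Bowtie2 2.2.3, TopHat2 2.0.12 and Cufflinks 2.2.1, and deposited FPKM per transcript, with an assembly that covers 30 samples. The genome build was not given in the sources used here, but 87.6% of the known transcripts found in GENCODE M21 have its start and end on GRCm38. Fold changes and tests were computed here from the FPKM.

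Of 152210 rows, 142558 were summed into 22870 GENCODE M21 genes by reference transcript; 8149 rows without one, 840 antisense, intronic or similar rows and 663 rows with a transcript that M21 lacks were left out. Summing by the deposited gene name had been planned and became an alternative, because that name merges Cyp2b13 into Cyp2b9. The 11994 genes whose average across all livers reached 0.5 FPKM were fitted as log2(FPKM + 1) with limma 3.58.1 in R 4.3.3 (trended moderated test, 4 groups in one fit, two-sided, Benjamini-Hochberg over all genes tested, threshold 0.05). Differences on this scale understate the change of low genes. All 5 genes passed the filter, Cyp2b10 and Cyp2b13 only through the HFD livers, so they are not tested against HFD, and lists are counted against HFD without genes of that kind, a choice made after seeing the data. The members and gene lists were chosen with earlier results of these data known. From each list, at most 4 genes called per comparison, those with the largest difference, could be named, and for each Cyp2b gene the 5 genes with the highest Pearson r. Each liver is from a separate mouse. The tests set group differences against the spread between mice within groups, taken over the 4 groups together and moderated over all genes. The labels call the CLE livers CLL in their titles. The fit was tested on simulated data. Alternatives were another pseudocount, no or a stricter filter, 3 scalings, other row choices, 2 groups alone, no variance trend, a replicate block and each liver left out. Promoter sequences came from RefSeq and transcript sequences from GENCODE M21, and both were aligned with Biopython 1.88.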

Additional observations from a re-analysis of the deposited data

How the results depend on the processing

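Of 445 values of the 5 genes under alternatives, 412 kept their side of the threshold, 20 lost a call, 13 gained one and 0 changed sign with a call. Cyp2b10 and Cyp2b13 against HFD, which were not tested, are among these values and among the calls lost or gained. No test is read from those. Of the 412, 14 changed sign without a call in either fit, such as Cyp2b9 in CLE minus LU, which ran from -0.64 to 0.70 with a liver left out. Cyp2b9 passed in all 12 alternatives and with any liver left out, from -4.91 to -4.07 (CLE minus HFD) and from -5.07 to -3.78 (LU minus HFD) over the latter. These fits reuse HFD livers that entered the choice of the gene, so passing in them adds no independent support. For Cyp2b10 and Cyp2b13 against HFD only the differences are given, without a test. Cyp2b10 in CLE minus HFD was -2.07 with a pseudocount of 0.1, -1.05 with no filter and -1.05 with the 2 groups alone. It ranged from -1.32 to -0.87 with a liver left out. In LU minus HFD, Cyp2b10 was -1.27 with no filter and ranged from -1.54 to -1.09 with a liver left out. Cyp2b13 in CLE minus HFD was -1.14 under quantile normalization, -1.64 with the highest transcript row and -1.64 with known transcripts alone. It was -1.51 without spanning rows and ranged from -1.60 to -0.91 with a liver left out. In LU minus HFD, Cyp2b13 was -1.64 with the highest row, -1.64 with known transcripts and -1.46 without spanning rows. There it ranged from -1.43 to -0.95 with a liver left out. Cyp2b10 and Cyp2b13 gave no value at a mean of at least 5 FPKM, nor Cyp2b13 by deposited name. Against ND, Cyp2b9 passed with a pseudocount of 0.1 (CLE 2.67, LU 2.72). The ND livers entered the choice of the gene as well, so this adds no independent support. Nr1i2 in CLE ranged from 0.24 to 0.54 with a liver left out. Nr1i3 in LU missed with no filter (0.93), median-of-ratios scaling (0.80) and GC correction (0.72), and ranged from 0.70 to 1.08. The cause of these changes was not tested.

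Deviations from the group mean of same-numbered livers in ND, CLE and LU correlated from -0.25 to 0.194. Differently numbered livers were not compared in this way, so the check cannot decide whether shared numbers pair the livers. With a replicate block, Cyp2b9 was 1.47 higher in CLE than ND and passed, Nr1i3 missed in CLE (1.20) and LU (1.14), and 266 and 24 genes were called.

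Counts of genes called by limma moved more. CLE minus HFD called 680, and 107 with no filter, 1033 under quantile normalization, 256 with the highest row, 352 with GC correction (115 higher, against 302 as deposited), 99 with the 2 groups alone and 30 (without HFD 15) to 2268 (without CLE 2) with a liver left out. LU minus HFD called 119, and 52 with no filter, 283 with the 2 groups alone and 21 (without LU 3) to 207 (without LU 8). CLE minus LU called 1, and 3 with no filter, 2 with the highest row, 2 with known transcripts, 0 at 5 FPKM and 1 to 3 with a liver left out. CLE minus ND called 3202, and 2040 with GC correction, 1752 with the 2 groups alone and 1571 to 3793 with a liver left out; 2468 were higher as deposited against 1226 of 2901 with median-of-ratios scaling, 1190 of 2787 with quantile normalization and 847 of 2040 with GC correction. LU minus ND called 1742, 1300 of them higher, against 731 of 1801, 726 of 1730 and 558 of 1267 with those scalings, and 640 to 1075 with a liver left out. HFD minus ND called 1410, 1167 of them higher, against 607 of 1103, 593 of 1046 and 631 of 1149, and 664 with the highest row, 732 with known transcripts and 667 to 1128 with a liver left out.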
